A study of Mus musculus with 4 samples.

Results

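The genes described here set epithelial against mesenchymal state in 3 mouse cell lines that were barcoded and sequenced together by split-pool single-cell RNA-seq. They were 10 genes found by symbol among the 33565 genes of the deposited matrices, and all 10 were listed. Of these, 7 mark epithelial cells (Cdh1, Epcam, Cldn6, Cldn7, Esrp1, Krt8 and Krt18) and 3 mark mesenchymal cells (Cdh2, Vim and Zeb2). N2a is a mouse neuroblastoma line and NIH/3T3 an embryonic fibroblast line, both grown in DMEM with 10% FBS. The mESCs were the embryonic stem cell line E14TG2a, grown on gelatin in 15% FBS with LIF, 3 µM of the GSK3 inhibitor CHIR99021 and 1 µM of the MEK inhibitor PD0325901. In the first barcoding round (BC1), N2a occupied columns 1 to 4 of the plate, NIH/3T3 columns 5 to 8 and mESCs columns 9 to 12. Each line was 1 established line in 1 library, so line, medium and plate columns cannot be told apart and no test between lines was made.

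Only cells holding 1000 UMIs or more, of which no more than 20% were mitochondrial, were kept, which gave 2323 N2a cells, 2037 NIH/3T3 cells and 2137 mESCs. Median depth was 6185, 4863 and 4803 UMIs per cell, and 0 barcodes were shared between the lines. That 0 was fixed by the design, because BC1 is part of each barcode and assigned it to a line. It is no check of mixing between the lines. A level is given as CPM, the summed UMIs of a gene scaled to a common total of UMIs (counts per 1000000) over the cells of a line. Intervals at 95% were exact, from the Poisson distribution for levels and the binomial distribution for shares. They describe only the error of counting. Each line also had 32 BC1 sequences, whose levels show the technical spread within 1 library and are not replicates. The share of all genes whose BC1 values do not overlap between lines is not given here. A lack of overlap below is therefore not particular to the gene named. Markers of each line were low in the others. Zfp42, a pluripotency gene of mESCs, stood in N2a at 0.0592% of its mESC level and in NIH/3T3 at 0.0908%, and Dppa5a, another, at 0.324% and 0.624%.

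Epithelial cells hold to each other through E-cadherin (Cdh1), tight junction claudins and keratin filaments joined to desmosomes. In an epithelial-to-mesenchymal transition, E-cadherin and its partners are lowered, N-cadherin (Cdh2) and vimentin (Vim) are raised, and repressors of the Zeb, Snail and Twist families act on epithelial promoters. Embryonic stem cells and the early embryo grow as E-cadherin-bound epithelium, fibroblasts are mesenchymal, and neuroblastoma comes from the neural crest, whose cells have passed through such a transition.

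Zeb and Snail factors bind the E-box CACCTG, which reads CAGGTG on the other strand. Both strands were searched for it in the RefSeq promoter windows of build GRCm38.p6, which run from 250 bases before to 50 bases after a gene's start. Of the members, the search is reported for 7. Cdh1 and Esrp1 had no window. The result for Cdh2 is not reported here. Vim and Zeb2 alone therefore stand for the mesenchymal members, and no contrast between the groups is drawn. The motif stood in windows of 5 of these 7 genes: Cldn6, Cldn7, Epcam, Krt8 and Krt18. It was in no window of Vim or Zeb2. Across all genes with a window, 22.6% held it (6098 of 27025), and 20.2% of all windows did (6640 of 32851). The windows of Epcam (chr17:87635729-87636028, plus strand), Krt8 (chr15:102004293-102004592, minus strand), Krt18 (chr15:102027966-102028265, plus strand) and Vim (chr2:13574061-13574360, plus strand) are shown because these genes differed most plainly between the lines below or lie beside each other. Capitals mark the motif, which began at -187 and -19 from the start of Epcam, at -111 in Krt8 and at -214 in Krt18. A match describes these letters only, and binding was not measured.
Epcam: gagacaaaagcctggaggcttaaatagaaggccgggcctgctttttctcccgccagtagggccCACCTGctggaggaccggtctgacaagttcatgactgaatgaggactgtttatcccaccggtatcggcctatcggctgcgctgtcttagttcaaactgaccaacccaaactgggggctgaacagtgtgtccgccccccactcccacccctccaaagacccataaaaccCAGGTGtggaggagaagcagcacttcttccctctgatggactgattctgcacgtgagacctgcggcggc
Krt8: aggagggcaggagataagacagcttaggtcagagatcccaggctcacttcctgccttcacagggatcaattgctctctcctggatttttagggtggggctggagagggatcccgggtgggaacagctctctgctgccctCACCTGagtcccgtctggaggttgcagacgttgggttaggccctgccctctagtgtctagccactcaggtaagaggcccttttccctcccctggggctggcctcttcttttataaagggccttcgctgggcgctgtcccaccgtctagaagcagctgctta
Krt18: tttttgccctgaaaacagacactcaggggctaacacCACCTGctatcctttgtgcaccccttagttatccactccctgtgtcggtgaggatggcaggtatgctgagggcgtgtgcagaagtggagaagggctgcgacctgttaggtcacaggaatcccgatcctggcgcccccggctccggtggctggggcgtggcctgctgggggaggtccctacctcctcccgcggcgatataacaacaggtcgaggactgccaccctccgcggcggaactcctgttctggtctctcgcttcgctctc
Vim: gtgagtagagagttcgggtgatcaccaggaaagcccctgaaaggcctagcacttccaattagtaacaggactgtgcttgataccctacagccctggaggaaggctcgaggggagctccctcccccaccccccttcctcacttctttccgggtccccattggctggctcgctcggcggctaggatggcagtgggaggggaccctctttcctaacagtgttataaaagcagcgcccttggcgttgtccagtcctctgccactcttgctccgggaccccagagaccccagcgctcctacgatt

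Cdh1 encodes E-cadherin, the calcium-dependent adhesion protein of epithelial cells, and lies on chromosome 8 at 107329941 to 107396880 of GRCm39 (plus strand, GENCODE M39). Its level was 298.5 CPM in mESCs (3678 UMIs, 288.9 to 308.3), 3.33 CPM in NIH/3T3 (39 UMIs, 2.37 to 4.56) and 0.557 CPM in N2a (10 UMIs). The mESC level was thus 89.5 times that of NIH/3T3 (65.4 to 126.1) and 535.9 times that of N2a (291.1 to 1119). Over the BC1 sequences, Cdh1 ran from 214.4 to 363.6 CPM in mESCs with a median of 289.5, and reached at most 15.0 CPM in NIH/3T3 and 6.32 CPM in N2a, so the mESC values did not overlap with the rest. NIH/3T3 stood at 5.99 times the N2a level (2.93 to 13.4). At 1.12% of the mESC level, Cdh1 in NIH/3T3 was above the percentages of Zfp42 and Dppa5a, and at 0.187% in N2a it was between those of the same genes. The part of free RNA in the low Cdh1 counts was not tested.

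Epcam, a membrane protein of epithelia and of stem cells, lies on chromosome 17 at 87943407 to 87958557 (plus strand). It was at 30.8 CPM in mESCs (380 UMIs, 27.8 to 34.1), at 1 UMI in N2a (0.0557 CPM) and at 0 UMIs in NIH/3T3. With 3 counts taken as the limit of a count of 0 over the line, the mESC level was at least 120.2-fold higher than in NIH/3T3. Against the 1 UMI of N2a the ratio was 553.7, with an interval from 98.8 to 21928. BC1 sequences of mESCs ranged from 8.57 to 61.9 CPM with a median of 28.9.

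The other junction and splicing members were scarce in all lines. Cldn6, a claudin of embryonic epithelia (chromosome 17, 23898223 to 23901420, plus strand), had 13 UMIs in mESCs (1.06 CPM), 7 in NIH/3T3 (0.598 CPM) and 1 in N2a. The mESC level was 1.76 times that of NIH/3T3, and the interval from 0.654 to 5.22 included equal levels. Its neighbour Cldn9 starts 137 bp away and had 318 UMIs in NIH/3T3 (27.2 CPM), 0 in N2a and 0.0812 CPM in mESCs. Cldn7, a claudin found along the sides of epithelial cells (chromosome 11, 69852648 to 69858711, plus strand), had 15 UMIs in mESCs (1.22 CPM) and 0 in both other lines, at least 4.75-fold higher than in NIH/3T3 and at least 7.29-fold higher than in N2a. It overlaps Elp5 on the opposite strand, which stood at 71.1, 91.2 and 63.2 CPM in N2a, NIH/3T3 and mESCs, and the use of strand in the counting is not given in the sources used here. Esrp1, which directs epithelial splicing (chromosome 4, 11331933 to 11386875, minus strand), had 8 UMIs in mESCs (0.649 CPM) and 0 elsewhere, at least 2.53-fold higher than in NIH/3T3 and at least 3.89-fold higher than in N2a.

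Krt8 and Krt18 encode the paired keratins of simple epithelia and lie 23697 bp apart on chromosome 15, Krt8 at 101905133 to 101912917 (minus strand) and Krt18 at 101936615 to 101940462 (plus strand). Krt8 stood at 9.17 CPM in mESCs (113 UMIs, 7.56 to 11.03), 1.20 CPM in NIH/3T3 (14 UMIs) and 0.0557 CPM in N2a (1 UMI). This was 7.66 times the NIH/3T3 level (4.38 to 14.5). Its BC1 values ran from 0 to 31.8 CPM in mESCs and reached 5.01 CPM in NIH/3T3, so these lines overlapped. Krt18 had 41 UMIs in mESCs (3.33 CPM, 2.39 to 4.51) and 1 UMI in each of the other lines, a ratio of 38.9 to NIH/3T3 (6.61 to 1574) and of 59.7 to N2a (10.1 to 2417).

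Keratin UMIs of mESCs were partly gathered in few cells. Of the 90 mESCs with a Krt8 UMI, 81 had 1 UMI and 3 had at least 4, and these 3 cells together held 19 of the 113 UMIs. One of them, with 5280 UMIs in all, held 10 Krt8 and 7 Krt18 UMIs together with 4 of Cdh1 and 0 of Zfp42. The same cell had 0 UMIs of the trophoblast, primitive endoderm and 2-cell lists. Without the 3 cells, Krt8 was at 7.64 CPM and Krt18 at 2.76 CPM. When every cell was cut by a random draw to the same 1000 UMIs (thinning), the variance of Krt8 over its mean was 1.33 in mESCs, where genes with a like mean had a median of 0.993. That draw left Krt8 in only 16 mESCs, so the value rests on few cells. For Krt18 the ratio was 0.997, the same as the median of its like genes. Averaged exactly over all possible draws, 6.05% of mESCs with a Krt8 UMI also had Krt18, against 0.282% of those without. However, only 5 unthinned mESCs held both, and the cell with 10 Krt8 and 7 Krt18 UMIs was 1 of them.

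Cdh2, N-cadherin of neural and mesenchymal cells, lies on chromosome 18 at 16700793 to 16942381 (minus strand). It was at 321.7 CPM in NIH/3T3 (3763 UMIs, 311.5 to 332.1), 297.6 CPM in N2a (5344 UMIs, 289.7 to 305.7) and 14.4 CPM in mESCs (178 UMIs, 12.4 to 16.7). NIH/3T3 and N2a differed by a ratio of only 1.08 (1.04 to 1.13), and their BC1 values overlapped, from 248.2 to 411.1 and from 213.8 to 361.7 CPM. All BC1 values of mESCs were lower, from 3.30 to 31.0 CPM. NIH/3T3 stood at 22.3 times the mESC level (19.2 to 26.03) and N2a at 20.6 times (17.7 to 24.1).

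Vim, the intermediate filament protein of mesenchymal cells, lies on chromosome 2 at 13578738 to 13587639 (plus strand). It stood at 1888 CPM in NIH/3T3 (22085 UMIs, 1863 to 1913), 439.6 CPM in N2a (7894 UMIs, 430.0 to 449.5) and 82.4 CPM in mESCs (1015 UMIs, 77.4 to 87.6). The 3 lines were separate over their BC1 sequences, from 1653 to 2174, from 363.0 to 507.3 and from 33.9 to 126.8 CPM. NIH/3T3 was at 4.29 times the N2a level (4.19 to 4.41), and N2a at 5.34 times the mESC level (5.00 to 5.70). In NIH/3T3, 35 cells had no Vim UMI, and their median depth was 1531 UMIs against 4944 in the cells that had one.

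Zeb2, a zinc finger repressor of Cdh1 and also a factor of neural crest and neuronal cells, lies on chromosome 2 at 44873644 to 45007464 (minus strand). Unlike Vim, it was highest in N2a, at 277.3 CPM (4979 UMIs, 269.7 to 285.1), against 138.5 CPM in NIH/3T3 (1620 UMIs, 131.8 to 145.4) and 3.98 CPM in mESCs (49 UMIs, 2.94 to 5.26). The BC1 values of N2a, from 224.6 to 372.0 CPM, lay above those of NIH/3T3, from 91.2 to 182.2, and both lay above the highest mESC value of 14.5. N2a stood at 2.00 times the NIH/3T3 level (1.89 to 2.12) and at 69.7 times the mESC level (52.7 to 94.4). Its antisense gene Zeb2os overlaps it and stood at 0 CPM in mESCs, 0.598 in NIH/3T3 and 1.56 in N2a. The antisense genes that overlap Krt8 and Cdh2 were at no more than 0.171 CPM.

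**Figure D1:**
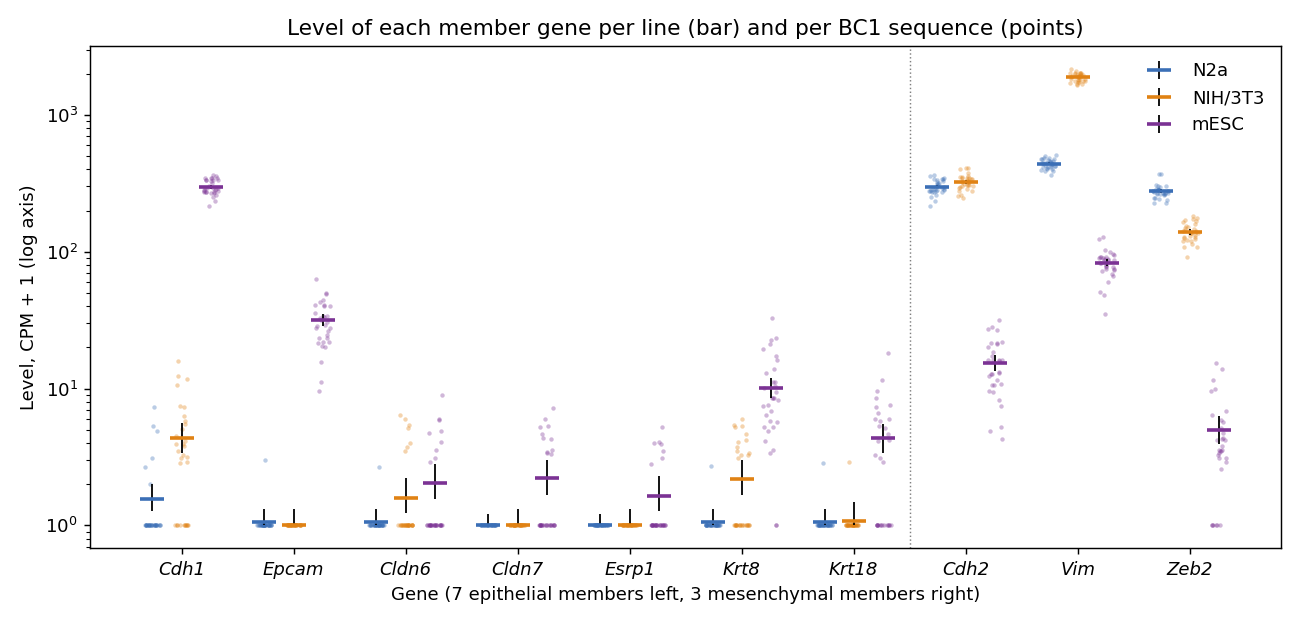
Level of the 10 genes as CPM + 1 on a log axis, with a bar for each line, its 95% exact Poisson interval as a black line, and a point for each of the 32 BC1 sequences of a line. Cdh1 and Epcam of mESCs sit above both other lines, while Cdh2, Vim and Zeb2 of mESCs sit below them, and Zeb2 is highest in N2a where Vim is highest in NIH/3T3.

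A gene was counted as past the fold when its CPM + 1 differed by at least 4-fold between lines, among 13512 genes with a mean of at least 2 CPM over the lines. Of the members, 6 met that mean (Cdh1, Epcam, Krt8, Cdh2, Vim and Zeb2). Cdh1, Epcam and Krt8 met it only through mESCs, since the mean of the other lines was under 2 CPM for each. They could therefore hardly be tested without being higher in mESCs, and their count is a description only. In mESCs against NIH/3T3, 3 members were higher, where 12.7% of all genes were, and 3 were lower, where 9.52% were. In mESCs against N2a the same 3 were higher (11.6% of all genes) and the same 3 lower (10.1%). In N2a against NIH/3T3, Vim was lower (8.87% of all genes) with a log2 ratio of CPM + 1 of -2.10, and 0 members were higher (10.8%). The comparisons share lines and are not independent of each other.

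The share of cells with a UMI followed the levels. For Cdh1, 67.6% of mESCs had a UMI, against 1.82% of NIH/3T3 and 0.430% of N2a cells, which thinning lowered to 24.9%, 0.393% and 0.129%. Epcam was found in 14.9% of mESCs (2.76% thinned) and in 0 of 2037 NIH/3T3 cells, which allows a share of cells with a UMI of up to 0.147% when 3 counts are taken as the limit of a count of 0 (exact binomial upper limit 0.181%). Krt8 was found in 4.21% of mESCs and Krt18 in 1.54%. Thinned shares of Cdh2 were 27.0% in NIH/3T3, 23.2% in N2a and 1.08% in mESCs. In the same order, those of Vim were 83.0%, 34.7% and 7.53%, and those of Zeb2 were 12.6%, 23.7% and 0.655%. Thinning is a random draw: the exact expected shares over all draws were 24.5% for Cdh1 in mESCs and 82.3% for Vim in NIH/3T3.

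**Figure D2:**
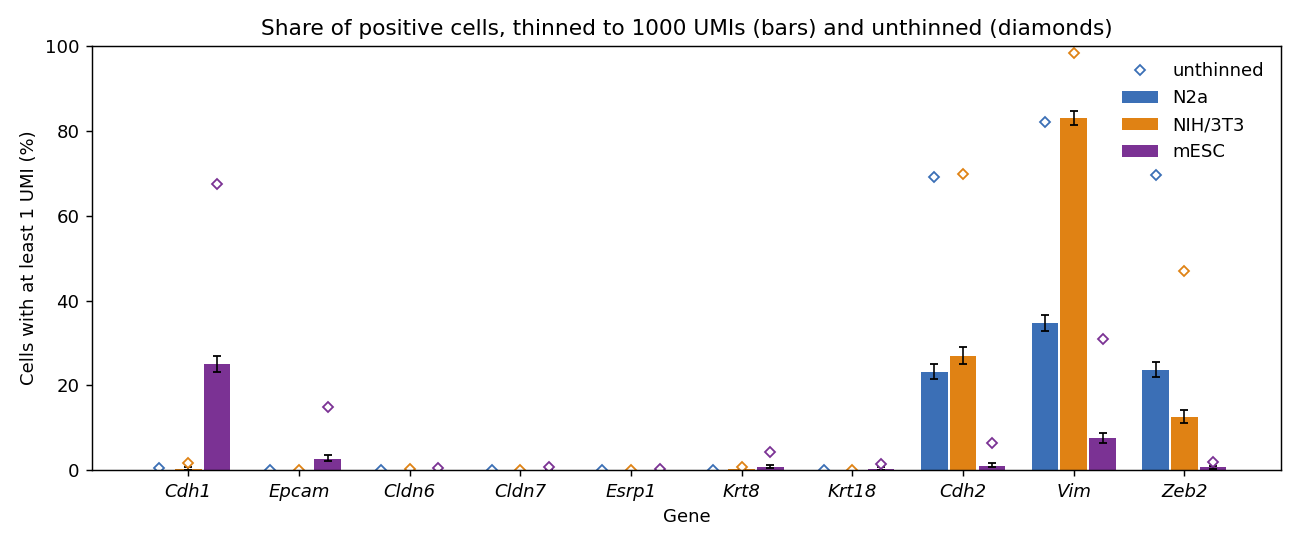
Share of cells in percent with at least 1 UMI of each gene in each line, with bars for cells thinned to 1000 UMIs, 95% exact binomial intervals as black lines, and diamonds for unthinned cells. Vim in NIH/3T3 reaches 83.0% thinned and 98.3% unthinned, and Cdh1 exceeds 1% thinned in mESCs only.

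Few thinned cells held UMIs of both an epithelial and a mesenchymal member. Both were found in 2.53% of mESCs (54 cells, 1.90% to 3.28%), in 0.785% of NIH/3T3 cells and in 0.129% of N2a cells. The expected shares over all draws were 2.51%, 0.478% and 0.0727%. Such shares depend on how often each group is found at all. Of the thinned mESCs, 25.5% held epithelial members only, 6.55% mesenchymal members only and 65.5% neither. Exclusion of 1 group by the other within a cell was not tested. In the unthinned mESCs, 27.8% held both, 43.9% epithelial members only, 7.39% mesenchymal members only and 20.9% neither, whereas 96.5% of NIH/3T3 and 94.7% of N2a cells held mesenchymal members only. Within mESCs, by the expectation over all draws, Cdh2 was found in 1.58% of cells with Cdh1 and in 1.43% of those without. Epcam was found in 2.98% of mESCs with Cdh1 and in 3.00% of those without. In N2a, Vim was found in 31.7% of cells with Cdh2 and in 35.1% of cells without.

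**Figure D3:**
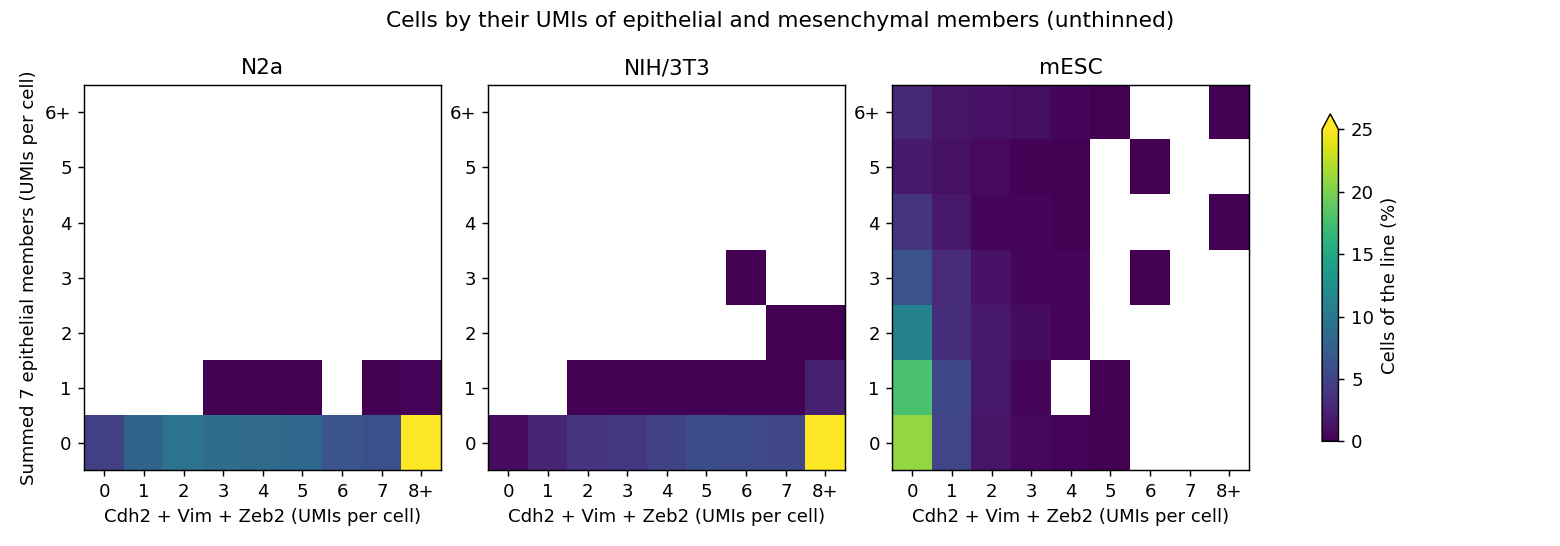
Share of the cells of each line, in percent by color, at each number of UMIs of Cdh2, Vim and Zeb2 (x axis, summed) and of the 7 epithelial members (y axis, summed), without thinning; white squares hold no cell and the color scale ends at 25%. N2a and NIH/3T3 lie along the bottom row, and mESCs spread up the left side, with 43.9% of them holding epithelial members only.

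Fibroblast transcripts were found in few mESCs, so levels in cells without them could hardly differ from those of all mESCs. In the 2088 of 2137 mESCs with 0 UMIs of a fibroblast list, Vim was at 82.3 CPM, Cdh2 at 14.8 CPM and Zeb2 at 4.11 CPM. In the 49 mESCs with at least 1 such UMI, Vim was at 84.5 CPM, Cdh2 at 5.12 CPM (2 UMIs) and Zeb2 at 0. Those 49 cells were deeper, with a median of 7707 against 4785 UMIs. A part of fibroblasts in the mESC levels was not tested. That list summed to 1390.9 CPM in NIH/3T3, 4.22 in mESCs and 1.84 in N2a. In 81 mESCs with at least 3 UMIs of a list of genes of the 2-cell embryo, Cdh1 was at 250.3 CPM (203.6 to 304.4) against 300.1 CPM in the rest, and Vim at 85.1 against 82.3 CPM.

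The wider lists put these genes beside the rest of the epithelial program, and are described by counts past the same 4-fold. Of all 13512 tested genes, 17.8% reached the mean of 2 CPM only through their highest line. Such genes are counted below for each list, and the counts past the fold are descriptions that support no difference of a list. Of 15 further junction genes, 9 were tested, of which 5 were higher in mESCs than in NIH/3T3 (12.7% of all genes) and 7 higher than in N2a (11.6%), with 0 lower. Of the 9, 4 were tested only through mESCs. Llgl2, of the basolateral polarity complex, was at 89.1 CPM in mESCs, 4.19 in NIH/3T3 and 4.34 in N2a, and F11r, the junctional adhesion molecule A, at 34.1, 0.171 and 0.501 CPM. The tight junction scaffold Tjp1 was highest in N2a at 172.5 CPM, with 129.6 in mESCs and 107.8 in NIH/3T3. Cldn12 was highest in NIH/3T3 at 42.2 CPM, against 18.9 in N2a and 12.2 in mESCs.

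Several desmosome genes were higher in mESCs, but not all. Of 11 genes of the desmosome and keratin list, 6 were tested, 5 of them only through mESCs. In mESCs, 5 were higher than in NIH/3T3 (12.7% of all genes) and 4 higher than in N2a (11.6%). Dsg2, the desmosomal cadherin of simple epithelia, was at 111.8 CPM in mESCs, 0.0855 in NIH/3T3 and 0.390 in N2a. Dsp, which ties desmosomes to keratin, was at 39.3, 0.0855 and 0.167 CPM. Pkp2 was at 15.6, 0 and 1.67 CPM and Perp at 9.17 CPM in mESCs and 0 elsewhere. Jup, plakoglobin, was shared more evenly, at 64.3, 14.9 and 42.3 CPM.

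Of 11 genes of the epithelial membrane and protease list, 7 were not tested. The other 4 were higher in mESCs than in NIH/3T3 (12.7% of all genes) and than in N2a (11.6%), and 1 of them, Elf3, was tested only through mESCs. The protease matriptase (St14) was at 37.2 CPM in mESCs, 0.598 in NIH/3T3 and 3.95 in N2a. Its inhibitors Spint1 and Spint2 were at 62.2 and 58.4 CPM in mESCs, 0.171 and 1.97 in NIH/3T3, and 5.01 and 7.63 in N2a. Elf3, an epithelial ETS factor, was at 69.5, 0.256 and 0.278 CPM. P-cadherin (Cdh3) was at 2.60 CPM in mESCs, 0.0855 in NIH/3T3 and 0.167 in N2a.

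Regulators of the epithelial state mostly had few UMIs, with 2 of 5 tested, each only through its highest line. Grhl3 was at 18.7 CPM in mESCs, 0 in NIH/3T3 and 0.0557 in N2a, while Grhl2 was highest in N2a at 12.0 CPM, with 1.97 in NIH/3T3 and 1.06 in mESCs. Esrp2 was at 1.87 CPM in mESCs, Ovol2 at 0.649 and Ovol1 at 0.325, each at most 0.342 CPM elsewhere.

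The other mesenchymal regulators were all highest in NIH/3T3, though Zeb1 was shared by all 3 lines. All 7 were tested, 5 of them only through NIH/3T3. In N2a, 6 were lower than in NIH/3T3 (8.87% of all genes), in mESCs 4 were lower than in NIH/3T3 (9.52%), and 0 were past the fold between mESCs and N2a. Zeb1 was at 256.5 CPM in NIH/3T3, 202.6 in N2a and 172.4 in mESCs, and was past the fold in no comparison, unlike Zeb2. The mesenchymal homeobox gene Prrx1 was at 622.4 CPM in NIH/3T3, 0.812 in mESCs and 0.501 in N2a. Twist1 was at 35.5, 2.76 and 0 CPM and Twist2 at 106.0, 0 and 0.334 CPM. Snai1 was at 9.15, 3.90 and 0.947 CPM and Snai2 at 6.15, 1.70 and 0.0557 CPM.

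Several matrix and cytoskeleton genes were highest in NIH/3T3. Of 18 tested, 13 were lower in N2a than in NIH/3T3 (8.87% of all genes) and 2 higher (10.8%), while 9 were lower in mESCs than in NIH/3T3 (9.52%). Of the 18, 6 were tested only through NIH/3T3 and 1 only through N2a. Between mESCs and N2a, 3 were higher (11.6%) and 3 lower (10.1%). S100a4, a calcium-binding protein of fibroblasts, was at 2247 CPM in NIH/3T3, 22.3 in N2a and 6.33 in mESCs, and the lectin Lgals1 at 2137, 459.3 and 76.9 CPM. Sparc was at 799.1 CPM in NIH/3T3, 218.6 in mESCs and 155.0 in N2a. Fibronectin (Fn1), often used as a mesenchymal marker, was highest in mESCs at 641.9 CPM, with 411.2 in NIH/3T3 and 112.9 in N2a, and caldesmon (Cald1) was highest in N2a at 463.3 CPM, with 287.2 in mESCs and 259.4 in NIH/3T3.

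The catenins, which tie cadherins to actin, differed by family member. All 5 were tested, and 2 of them only through their highest line, Ctnna2 through N2a and Ctnnd2 through mESCs. Ctnnb1 was at 272.0 CPM in NIH/3T3, 230.7 in mESCs and 143.3 in N2a, and Ctnnd1 at 167.5, 157.4 and 98.0 CPM. Ctnna1 was at 607.2 CPM in mESCs, 329.7 in NIH/3T3 and 323.9 in N2a. The neuronal form Ctnna2 was at 263.0 CPM in N2a, 1.54 in mESCs and 0.855 in NIH/3T3, and Ctnnd2 at 64.5 CPM in mESCs, 1.03 in NIH/3T3 and 0.446 in N2a. Of 8 other cadherins, 3 were tested, 2 of them only through mESCs, and 2 were higher in mESCs than in NIH/3T3 (12.7% of all genes). Cdh4 was at 34.3 CPM in mESCs and at most 0.613 elsewhere, Cdh13 at 11.4, 1.80 and 3.79 CPM in mESCs, NIH/3T3 and N2a, Cdh12 at 4.71, 0.513 and 0.947, Cdh6 at 2.60, 0.171 and 0.111, and Cdh15 at 2.90 CPM in N2a. Among the other intermediate filaments, 8 of 9 were tested, 2 of them (Nefl and Nefm) only through mESCs. Peripherin (Prph) and internexin (Ina), of neurons, were at 304.8 and 174.7 CPM in N2a, 5.03 and 19.96 in mESCs, and 1.97 and 0.513 in NIH/3T3, so that Ina in mESCs was past the fold against NIH/3T3 as well. Lmna, of the nuclear lamina, was at 488.3 CPM in NIH/3T3, 81.5 in N2a and 18.7 in mESCs, whereas Lmnb1 was highest in mESCs at 362.3 CPM, and Nefl was at 49.3 CPM in mESCs and at most 0.223 elsewhere.

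**Figure D4:**
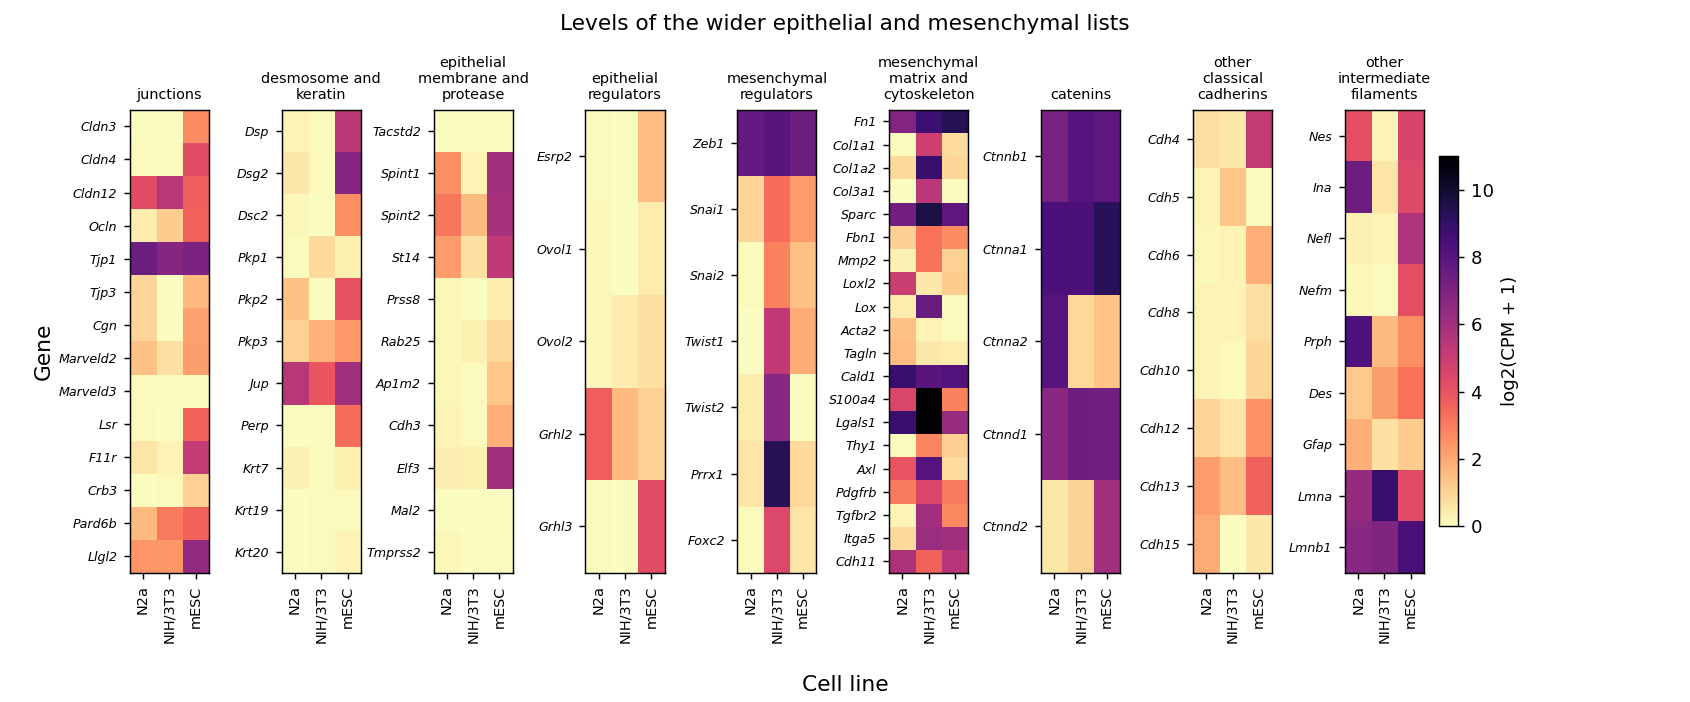
Level as log2(CPM + 1), by color, of genes of 9 wider lists (rows) in the 3 lines (columns). Dsg2, Elf3 and Spint1 are dark in the mESC column only, Prrx1 and Twist2 in the NIH/3T3 column only, and Zeb1 in all columns.

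The genes with the most similar profile over the 3 lines were sought by distance in log2(CPM + 1) among 9522 genes with at least 20 CPM in a line, which rests on 3 values per gene. For Cdh1 they were Halr1 (distance 1.04), Prex2 (1.09) and Ttn (1.15). For Vim they were Lgals1 (0.21), Asap1 (1.04) and Mbnl1 (1.37), and for Zeb2 they were Parp8 (0.44), Tiam2 (0.49) and Chst11 (0.80). For Cdh2 they were Nrp2 (0.56), Rhox5 (0.72) and Cyth3 (0.80), and for Krt8 they were Gm48693 (1.31), Gcnt1 (1.33) and Psma8 (1.37). Krt8 itself reached only 9.17 CPM, under the 20 CPM asked of the genes searched. Genes at a level like that of Krt8 were thus left out, and the 3 named need not be its most similar genes.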

How the data were processed

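Single cells of N2a, NIH/3T3 and mESC were measured in 1 library. The authors deposited raw counts of UMIs for every gene and barcode, made by trimming, alignment and counting with STARsolo on GRCm39 with GENCODE M30, without a cell filter. The feature mode is not given in the sources used here. From these counts, cells with a minimum of 1000 UMIs and a mitochondrial share of at most 20% were kept, and doublets were not called. The matrices held from 13505027 UMIs (NIH/3T3) to 20662884 UMIs (N2a). The pooled matrix holds the same reads and served as an alternative only. CPM were taken from summed UMIs, with exact 95% intervals.

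Shares were computed after thinning each cell to 1000 UMIs with 1 random stream over the cells. A second scheme with 1 seed per cell, and the exact expectation over all draws, were added after results had been seen, and the values of the first draw were kept. Python 3.11.15, numpy 2.4.6, scipy 1.17.1 and pandas 2.3.3 were used. The members and lists were chosen with earlier results of these data known. The genes named were the members, 11 set regulators, and the 5 genes with the highest CPM of each other list, of which 1 is not reported here. On simulated counts for mESCs against NIH/3T3 with 33565 genes, 200 of 200 genes changed 8-fold were recovered. Because that change is well above the 4-fold limit, the simulation does not show how genes near the limit fare.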

Additional observations from a re-analysis of the deposited data

Results flagged for a closer look

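Cdh1 in NIH/3T3 barcodes with 1 to 100 UMIs, which no comparison above used, stood at 10.3 CPM (14 UMIs), against 3.33 CPM in NIH/3T3 cells. It was singled out because its interval lay above that in the cells and the level was at least 2-fold higher. By less than that fold, Vim was also above its cells, at 2558 against 1888 CPM in NIH/3T3 and 517.9 against 439.6 in N2a. Cdh2 in mESCs was too, at 25.8 against 14.4 CPM. The other way, Cdh2 was at 244.5 against 321.7 CPM in NIH/3T3 and 227.9 against 297.6 in N2a, and Zeb2 in N2a at 244.6 against 277.3. In the NIH/3T3 barcodes with 1 to 100 UMIs the mESC genes Zfp42 and Dppa5a were at 19.1 and 35.2 CPM, against 1.20 and 11.4 CPM in the cells. The N2a gene Hand2 was at 9.55 against 1.11 CPM, while the mESC gene Pou5f1 had 0 UMIs there. The source of these UMIs was not tested.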

How the results depend on the processing

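No paired analysis was possible because each line had 1 library. The levels of at least 10 CPM stayed between 0.955 and 1.073 times their value under the other cell sets. Scaled to totals without mitochondrial and ribosomal protein genes, they rose to between 1.106 and 1.140 times their value. With a pseudocount of 5 CPM, Krt8 was no longer past the fold in mESCs against either line. The values without fibroblast transcripts and without the 3 keratin-rich cells were also chosen after seeing the data. In N2a against NIH/3T3, 3 members instead of 1 were lower with a pseudocount of 0.1 CPM and also with at least 2-fold, Cdh1 and Krt8 being added. Without thinning, the share of cells with both groups was 27.8% in mESCs, 2.80% in NIH/3T3 and 0.603% in N2a. Thinned to 2000 UMIs it was 1.30% in NIH/3T3 and 8.76% in mESCs. Without Cdh1 and Vim, an alternative chosen after seeing the data, it was 0.0936% in mESCs, 0.344% in NIH/3T3 and 0% in N2a.

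Dropping the deepest 5% of cells gave 0.258% in NIH/3T3 instead of 0.785%. That setting also redraws the remaining cells. With 1 seed per cell, which redraws none and was added after this drop was seen, the share was 0.687% with all cells and 0.724% without the 5%, and the exact expectation with all cells was 0.478%. All 33 exact expectations lay within the intervals of the first draw, while another seed moved 2 of 30 shares outside them. Shares that rest on few cells are therefore limited by the draw as well as by depth. Of the log2 ratios past the fold, 0 changed sign under these alternatives. The order of the lines in the share with both groups did turn: it was higher in mESCs than in NIH/3T3, and lower without Cdh1 and Vim. So did the order of Cldn6 shares, at 0.147% in NIH/3T3 and 0.0936% in mESCs, against 0% and 0.0468% with another seed.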
